A study of Mus musculus with 12 samples.

Results

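The peaks of Cpeb4 in an Argonaute (Ago) HITS-CLIP series of mouse fetal liver are described here, as all rows of the deposited peak table whose gene is Cpeb4. They are 82 of 106382 peaks. HITS-CLIP crosslinks RNA to the protein that holds it, precipitates the protein and sequences the RNA fragments, so a peak marks a stretch of RNA recovered with Ago. Cpeb4 was selected on its read counts in knockout against wild type Ago libraries, where it had peaks called in both directions, so those values are given as a description and support nothing. The animals were C57BL/6J mouse embryos, either miR-144/451-/- (KO), which lack the miR-144/451 microRNA locus, or wild type (WT). From fetal liver cells of each genotype, libraries were made by precipitation with Ago or control IgG antibody, which gives 4 groups of 3 libraries: KO Ago (libraries 3, 12 and 13), WT Ago (1, 9 and 10), KO IgG (4, 8 and 14) and WT IgG (2, 6 and 11). The labels speak of 3 replicates per genotype and do not say whether every library came from a separate embryo. The p-values therefore refer to library-to-library spread, which may be partly technical.

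CPEB proteins bind cytoplasmic polyadenylation elements in the 3′UTRs of mRNAs and control the length of the poly(A) tail and translation. Cpeb4 is known from mouse erythroid cells as a translational repressor that works with the initiation factor eIF3 during terminal differentiation, and its gene is induced there by the transcription factors Gata1 and Tal1. MicroRNAs guide Ago to mRNAs by pairing of their seed, the bases near the 5′ end, and the miR-144/451 locus is one of the most active microRNA loci of erythroid cells.

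The mature microRNAs of the locus, and miR-16-5p, which has codes at Cpeb4 peaks of the coding sequence, are shown because the deposited seed codes refer to them. The sequences are RefSeq's for GRCm38.p6, 5′ to 3′, with the seed (bases 2 to 8) in capitals. No 2 of them share a seed.
miR-451a: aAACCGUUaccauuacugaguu
miR-144-3p: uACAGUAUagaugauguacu
miR-144-5p: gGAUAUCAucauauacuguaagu
miR-16-5p: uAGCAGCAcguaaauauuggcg
The deposited seed code of a peak names its match to each of 6 microRNAs. A 6-mer of miR-451a reads ACGGTT in DNA letters and its 7-mer-A1 reads ACGGTTA, while the 6-mer of miR-144-3p reads TACTGT. The code also records weaker matches, which are an offset 6-mer for all 6 microRNAs and 1 mismatch in the seed for the microRNAs of the locus alone.

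Reads in peaks ranged over 147969 to 341061 in the KO Ago libraries, 202876 to 452157 in the WT Ago libraries, 24622 to 42916 in the KO IgG libraries and 25985 to 42399 in the WT IgG libraries. Levels below are reads per 1000000 peak reads (RPM), and intervals are exact 95% intervals that cover counting error only. In sums over peaks, a read that overlaps neighbouring peaks may be counted more than once. Intervals of such sums may therefore be too narrow. Of 15 erythroid marker genes, 10 were named on peaks and all of the others were globin genes. The erythroid markers took 0.777 to 1.02% of peak reads in the KO Ago libraries and 1.14 to 1.42% in the WT Ago libraries, against 0.807 to 0.959% in the KO IgG libraries and 0.788 to 1.05% in the WT IgG libraries. The genotypes overlapped in IgG and not in Ago. The hepatocyte markers, 10 of 10 named on peaks, took 1.12 to 2.18% in the KO Ago libraries and 0.597 to 1.77% in the WT Ago libraries, against 1.74 to 2.50% in the KO IgG libraries and 1.55 to 2.29% in the WT IgG libraries. In tissue lysates, fewer cells of a type, less RNA per cell and less of that RNA held by Ago cannot be told apart in Ago reads. The part of cell composition in the Cpeb4 values was not tested.

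Cpeb4 was among the genes with the most peaks. The median of 12102 genes was 3 peaks, and 18 genes had more than the 82 of Cpeb4. The peaks were 19 to 107 nt wide, with a median of 30 nt. The RefSeq gene (gene ID 67579) spans chr11:31870104-31935635 on the plus strand of GRCm38, the assembly that mm10 corresponds to, and all 82 peaks lie inside it. The authors' feature classes put 50 peaks in introns, 21 in coding sequence (CDS), 7 upstream, 2 in the 5′UTR and 2 in the 3′UTR.

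The intron class needs a closer description, because it was not spread over the introns. Of the 50 intron-labelled peaks, 45 formed a dense run on the plus strand after the last 3′UTR-labelled peak, which ends at position 31931586. The run reached to 12 nt before the RefSeq gene end, within 4049 nt, with a median gap of 49 nt between neighbouring peaks and a smallest gap of 3 nt. Only 5 intron-labelled peaks lay before it. Over the whole table, 29.0% of the 11372 intron-labelled peaks inside a RefSeq gene were as near to the gene's 3′ end. All 7 upstream-labelled Cpeb4 peaks also lay inside the RefSeq gene, against 51.1% of 421 such peaks in the table. A RefSeq gene ends with an exon, and the run reached to 12 nt before that end. The reference used here gave gene bounds and no exons. How much of the run lies in an intron or in a longer 3′UTR was therefore not checked. The intron label is the authors' class and is not read here as a position in an intron. Since a read counted for a peak when it overlapped it by at least 16 bases, neighbouring peaks may share reads.

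The run held most Cpeb4 reads in every group. It held 952 of 1372 Cpeb4 reads in the KO Ago libraries and 1019 of 1579 in the WT Ago libraries. The 2 peaks labelled 3′UTR held 17 reads in KO Ago and 30 in WT Ago, and neither passed the filter on low counts. Per 100 nt of peak, the intron-labelled peaks stood at 84.1 RPM in KO Ago and 67.8 RPM in WT Ago, and the 3′UTR-labelled ones at 55.5 RPM in KO Ago and 70.5 RPM in WT Ago. The 3′UTR values rest on so few reads that the KO over WT ratio of 0.780 had an interval of 0.404 to 1.46. The 5 early intron peaks stood lower, at 16.4 RPM per 100 nt in KO Ago and 22.2 RPM in WT Ago.

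The summed level of Cpeb4 was 1896, 2126 and 1825 RPM in KO Ago libraries 3, 12 and 13, against 1616, 1703 and 1661 RPM in WT Ago libraries 1, 9 and 10. The groups did not overlap, and the KO over WT ratio of the summed reads was 1.20 (1.11 to 1.29). On this scale the median of the 2425 tested peaks, taken peak by peak, was 1.23. The tested peaks held 14.1 to 17.0% of the peak reads of an Ago library. The middle of all peaks or of gene totals was not computed. By class, the ratio was 1.27 (1.16 to 1.39) for intron-labelled peaks and 0.978 (0.831 to 1.15) for CDS peaks. The 5′UTR peaks had a ratio of 2.03 (1.09 to 3.85) from 28 reads in KO Ago and 19 in WT Ago. The upstream-labelled peaks had a ratio of 1.21 (0.916 to 1.59).

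In the fit over the whole table (edgeR quasi-likelihood, TMM scaling), 12 of the 82 Cpeb4 peaks passed the filter, and 10 of these lay in the run. The other 70 held 5 to 66 Ago reads each, with a median of 20. Of the 12, 3 were called lower in KO, 1 was called higher and 8 were not called, beside 17.6% of all tested peaks called lower and 1.4% called higher. Over the table these were 428 lower and 34 higher, 384 lower and 83 higher with reads in all peaks as library size, and 373 lower and 7 higher with DESeq2. Without WT Ago library 1, 304 were lower and 3 higher, and without KO Ago library 12, 450 were lower and 14 higher. KO and WT Ago libraries did not overlap at 9 of the 12 tested peaks, where 37.0% of all tested peaks did not overlap, and at 27 of all 82, where 18.9% of all 106382 peaks did not overlap. These counts follow from how the gene was chosen. The median log2 change of the 12 was -0.10, and that of all tested peaks was 0.09 (0.30 with reads in all peaks as library size).

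The peak called lower in the CDS, chr11:31931406-31931442, carries a 6-mer of miR-144-3p and a 7-mer-A1 of miR-16-5p. It held 10, 20 and 6 reads in KO Ago libraries 3, 12 and 13, against 25, 44 and 19 reads in WT Ago libraries 1, 9 and 10. This was 49.8 ± 9.06 RPM in KO and 92.2 ± 5.98 RPM in WT (SD, n = 3 each), a log2 change of -1.05 ± 0.33 (SE). All KO libraries lay below all WT libraries. The call was lost without WT Ago library 9 (log2 change -0.95), KO Ago library 3 (-1.01) or KO Ago library 13 (-0.84), without TMM (-0.89), with all peak reads as library size (-0.84), with DESeq2 (-1.08) and without the filter (-1.13).

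The peak chr11:31932036-31932060, 449 nt into the run, has a miR-451a seed match with a mismatch at position 5. It held 6, 9 and 3 reads in KO Ago libraries 3, 12 and 13, against 21, 28 and 13 reads in WT Ago libraries 1, 9 and 10. Levels were 25.6 ± 4.998 RPM in KO and 66.0 ± 5.26 RPM in WT, a log2 change of -1.53 ± 0.37. The KO libraries were again all below the WT libraries, and all 11 alternative settings kept the call.

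The peak chr11:31932588-31932611, 1001 nt into the run, has a miR-144-3p match with a mismatch at position 6. It held 2, 7 and 2 reads in KO Ago libraries 3, 12 and 13, against 12, 24 and 10 reads in WT Ago libraries 1, 9 and 10. Levels were 14.7 ± 5.33 RPM in KO and 47.8 ± 6.13 RPM in WT, a log2 change of -1.78 ± 0.44. The groups did not overlap, and the call was kept in all 8 alternative settings in which the peak passed the filter.

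The only Cpeb4 peak called higher, chr11:31934713-31934760, lies 3126 nt into the run and has no seed code for any of the 6 microRNAs. It held 27, 55 and 22 reads in KO Ago libraries 3, 12 and 13, against 14, 29 and 12 reads in WT Ago libraries 1, 9 and 10. Levels were 148.6 ± 12.7 RPM in KO and 57.1 ± 8.29 RPM in WT, a log2 change of 1.15 ± 0.30. All KO libraries lay above all WT libraries. Leaving out KO Ago library 12 (1.04) or WT Ago library 1 (0.92) ended the call, as did fitting with no filter (1.07). It was the 1 intron-labelled peak called higher among 196 tested in the table, of which 38 were called lower.

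The peak just outside the threshold was chr11:31934850-31934891, which has a 7-mer-A1 code of miR-122-5p. It held 24, 38 and 21 reads in KO Ago libraries 3, 12 and 13, against 12, 29 and 12 reads in WT Ago libraries 1, 9 and 10. Its log2 change was 0.93 ± 0.31, and it was called without TMM (1.08) and with all peak reads as library size (1.15). Among the called peaks, the CDS peak had the smallest log2 change, -1.05. The other peaks without a call had log2 changes of -0.98 ± 0.42 at position 31933434, -0.51 ± 0.38 at 31871837, -0.32 ± 0.37 at 31932492, 0.12 ± 0.36 at 31934947, 0.23 ± 0.31 at 31933529, 0.45 ± 0.30 at 31934809 and 0.83 ± 0.38 at 31934291. The negative ones lay upstream or in the first 2000 nt of the run, and of the positive ones all but 31933529 lay beyond it. At 31933434, KO Ago library 13 held 2 reads while libraries 3 and 12 held 12 and 26, and without library 12 the peak was called lower (-1.49).

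**Figure D1:**
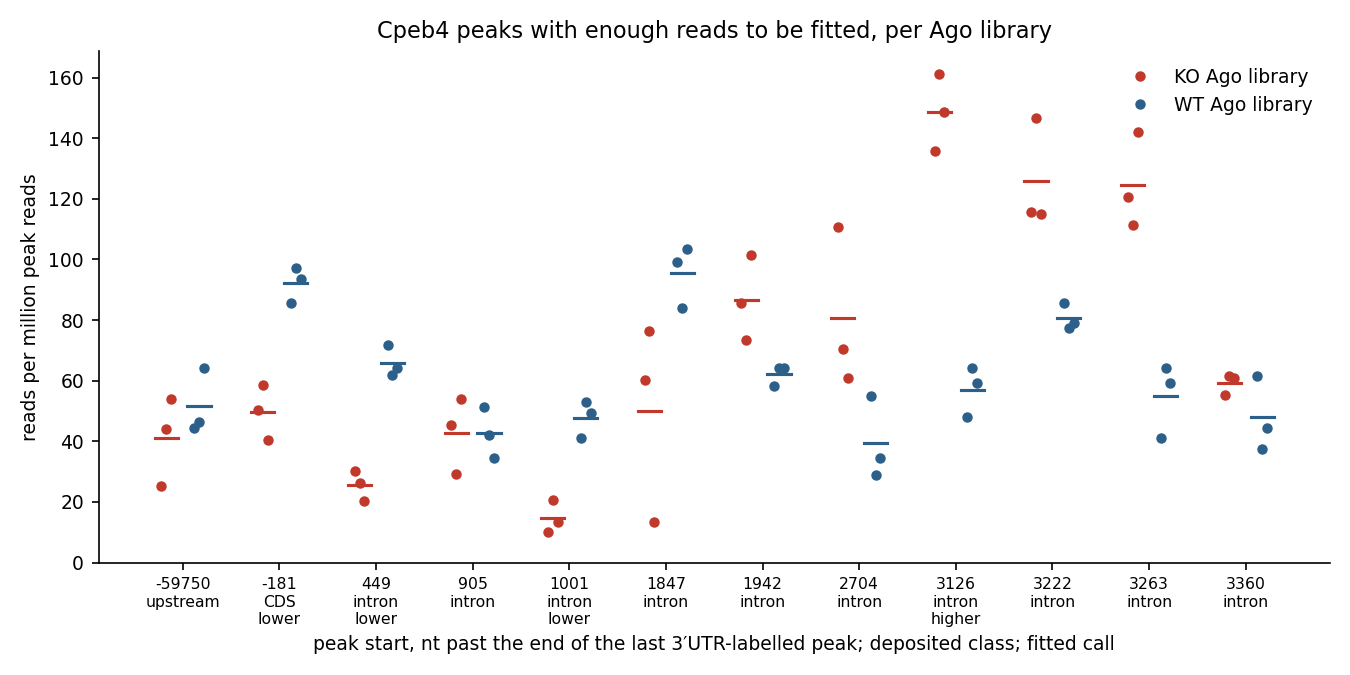
Level of the 12 tested Cpeb4 peaks in each Ago library, in RPM, with KO left of WT at each peak. Points are libraries and bars are means (n = 3); the x axis gives the start in nt past the last 3′UTR-labelled peak, the deposited class and the call. KO means lie below WT means at 449 and 1001 nt and above them at 3126 nt.

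A pair of Cpeb4 peaks held no KO Ago read. The peak chr11:31921458-31921482, an early intron peak, held 5, 5 and 3 reads in WT Ago libraries 1, 9 and 10 and is the only Cpeb4 peak with a 7-mer of miR-451a (7-mer-A1). With a floor of 3 reads over the group, it was 3.15-fold lower in KO. The interval of its KO over WT ratio reached up to 0.452. The peak chr11:31871219-31871244, upstream-labelled, held 9 WT Ago reads. It was 2.18-fold lower with the same floor, and the interval of its ratio reached up to 0.698. Neither passed the filter. No Cpeb4 peak was without WT Ago reads. How many of all peaks held no KO or no WT Ago read was not counted, so these counts are not read as particular to Cpeb4.

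Along the run, KO over WT ratios differed between peaks in the first 2000 nt and peaks beyond it. This division was chosen after the values were seen, so its numbers carry no test. The 25 peaks of the first 2000 nt stood at 503.5 ± 63.5 RPM in KO Ago and 598.8 ± 32.8 RPM in WT Ago, a ratio of 0.867 (0.758 to 0.991). The 20 distal peaks stood at 845.6 ± 57.8 RPM in KO Ago and 475.8 ± 12.8 RPM in WT Ago, a ratio of 1.82 (1.61 to 2.06). Of the first 25 peaks, 13 had a ratio below 1 and 12 above it, and of the 20 distal peaks 18 had a ratio above 1. Among tested peaks a ratio of 1 is not the middle of this scale, since the median of all 2425 was 1.23. Of all 82 Cpeb4 peaks, 50 had a ratio above 1. Most of the 82 were not tested. The share above 1 among all peaks of the series was not counted, so these counts have no background here. Both called-lower peaks of the run lay in the first stretch and the called-higher peak in the second.

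**Figure D2:**
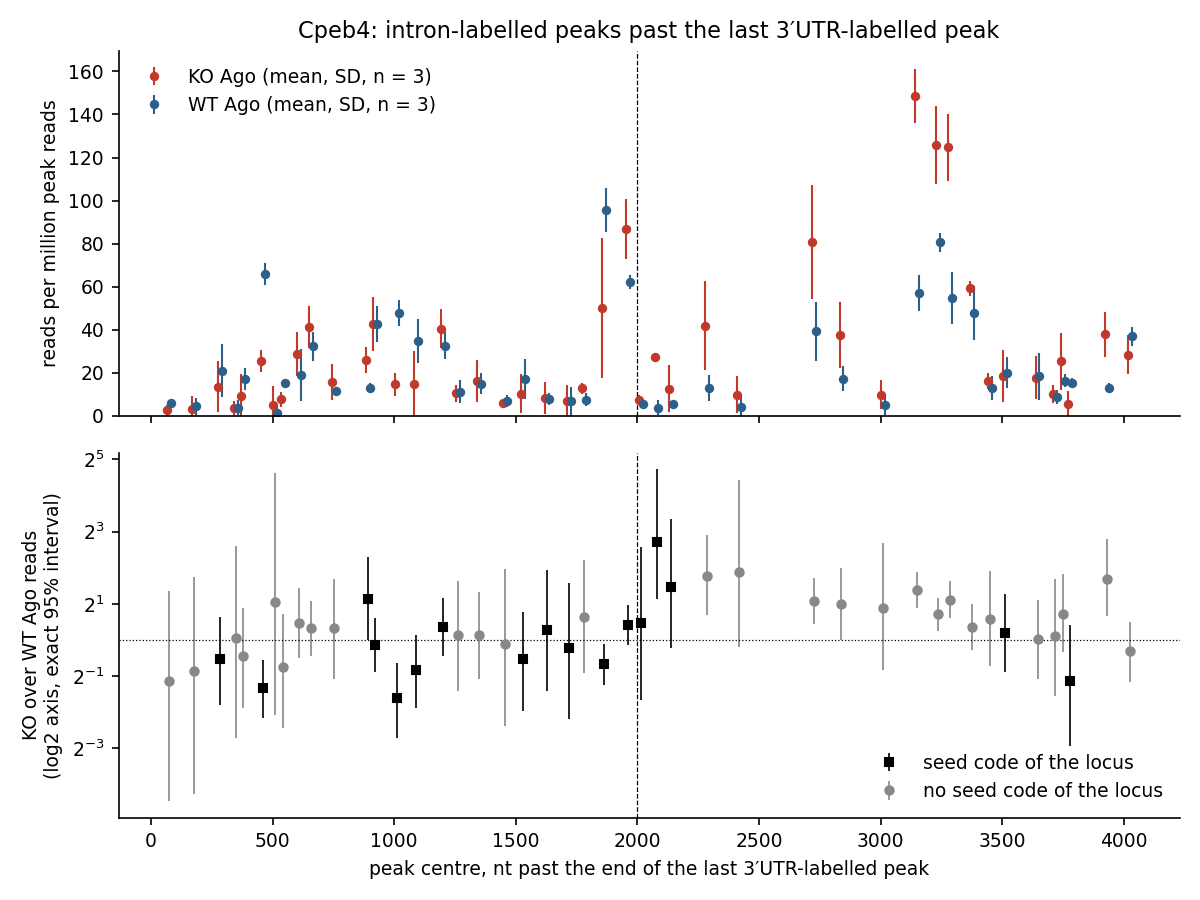
The 45 intron-labelled peaks past the last 3′UTR-labelled peak, by the distance of the peak centre from its end in nt. The upper panel gives KO and WT Ago levels (mean and SD, n = 3, RPM). The lower panel gives the KO over WT ratio with its exact 95% interval on a log2 axis. Squares are peaks that have a seed code of the locus. The dashed line is at 2000 nt, beyond which 18 of 20 ratios are above 1. The median ratio of all 2425 tested peaks is 1.23, and the share of all peaks above 1 was not counted.

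In stretches of 500 nt, the KO over WT ratio was 0.529 (0.363 to 0.758) in the first and 3.39 (2.16 to 5.47) in the one from 2000 to 2500 nt. The stretch from 3000 to 3500 nt, which holds the called-higher peak, had the most reads. It stood at 484.4 ± 35.7 RPM in KO Ago and 258.4 ± 1.99 RPM in WT Ago, a ratio of 1.90 (1.61 to 2.25). From 3500 nt to the end of the gene the ratio was 1.20 (0.918 to 1.57).

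**Figure D3:**
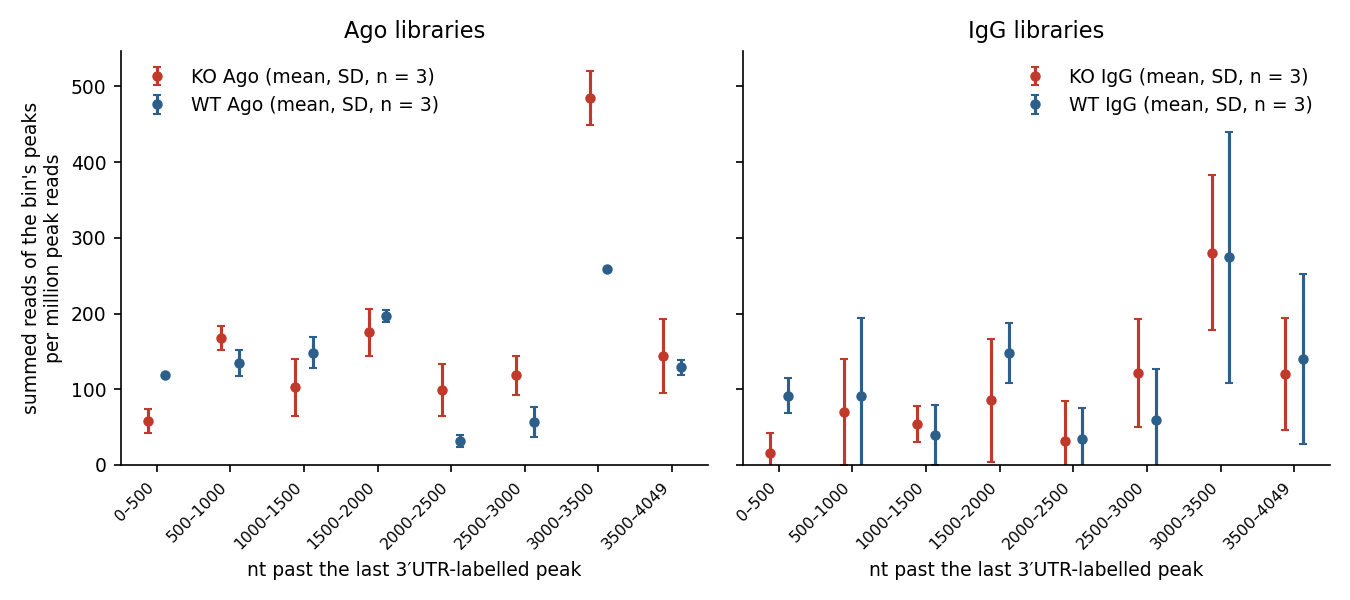
Summed level of the peaks in each 500-nt stretch of the run (mean and SD, n = 3), in RPM, for Ago libraries on the left and IgG libraries on the right, with KO left of WT. The Ago levels between 3000 and 3500 nt are 484.4 RPM in KO and 258.4 RPM in WT, while the IgG error bars overlap in that stretch.

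The distal share of the run's reads was 63.5, 61.2 and 63.6% in KO Ago libraries 3, 12 and 13, against 46.6, 42.7 and 43.6% in WT Ago libraries 1, 9 and 10. The difference was 18.5 percentage points without overlap. The IgG libraries, which were not used to choose the gene, had distal shares of 69.6, 76.9 and 70.0% in KO IgG libraries 4, 8 and 14, against 58.7, 47.6 and 62.5% in WT IgG libraries 2, 6 and 11. The difference was 15.9 percentage points, also without overlap, from 79 run reads in KO IgG and 91 in WT IgG. Averaged over the genotypes, the distal share was lower by 10.7 percentage points in Ago than in IgG libraries. No test is given for these shares, because the division was drawn from the same peaks.

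**Figure D4:**
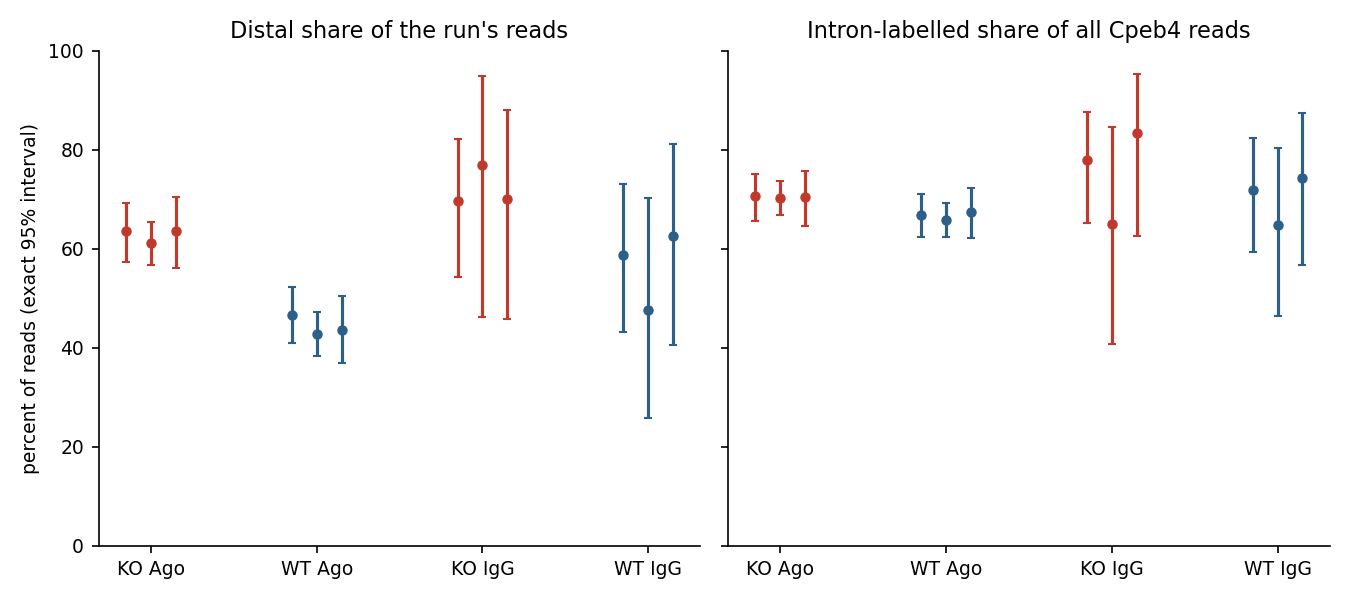
Share of the run's reads in peaks beyond 2000 nt (left) and share of all Cpeb4 reads in intron-labelled peaks (right) in each of the 12 libraries, in percent with exact 95% intervals. The distal share of every KO library is above that of every WT library of the same antibody, while the intron shares of the IgG libraries overlap between genotypes.

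Seed codes of the locus were counted on both sides of the same division, again with no test. A code for either arm of miR-144 or for miR-451a, weaker matches included, was present at 12 of the first 25 peaks and at 5 of the 20 distal ones. All 5 tested peaks of the first stretch carried one and 0 of 5 tested distal peaks did. The KO over WT ratio was 0.793 (0.674 to 0.931) for the 12 coded peaks of the first stretch and 1.08 (0.839 to 1.39) for the 13 without a code. In the distal stretch it was 1.58 (1.05 to 2.39) for the 5 coded peaks and 1.85 (1.62 to 2.11) for the 15 without. The parts of code and position in these ratios were not tested.

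Over the gene, 32 of 82 peaks (39.0%) carried a code of the locus, against 40.7% of all peaks. miR-144-3p had a code at 18 Cpeb4 peaks (22.0%, against 26.3% of all peaks), of which 3 were 6-mers and 0 were longer. miR-451a had a code at 10 peaks (12.2%, against 11.9%). miR-144-5p had a code at 11 (13.4%, against 10.6%), 2 of them 7-mers (2.44% of Cpeb4 peaks, against 0.40%). These 2 peaks, chr11:31932468-31932488 and chr11:31932492-31932521, are next to each other in the run. Whether they hold separate sites was not checked. Matches of 6-mer or longer were at 3.66% of Cpeb4 peaks for miR-144-3p (against 3.32%). For miR-144-5p they were at 3.66% (against 0.63%), the 2 neighbouring peaks included, and for miR-451a at 1.22% (against 1.03%). miR-16-5p, which is not of the locus, had a 7-mer or longer at 4 peaks (4.88%, against 4.04%). Most codes of the locus were thus mismatched or offset matches, at Cpeb4 peaks as over all peaks.

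Ago libraries were set against IgG libraries to ask which Cpeb4 peaks held more reads with the Ago antibody. This contrast uses the same Ago reads that chose the gene, and the tested Cpeb4 peaks passed the filter only through the Ago libraries, where they are high. With any 1 Ago library of the genotype left out, no Cpeb4 peak was tested. The tested peaks of the whole table then also fell, from 645 to 308 to 316 in KO and from 894 to 240 to 246 in WT. The loss is therefore not particular to Cpeb4. The values are therefore given as a description with no p, and the counts of calls support nothing. They also depend on the library size. The fit takes it from the tested peaks, which held 4.43 to 6.62% of peak reads in KO Ago, 18.7 to 26.2% in KO IgG, 4.99 to 7.40% in WT Ago and 17.5 to 21.3% in WT IgG. With reads in all peaks as library size, an alternative added after the values were seen, the median log2 change of tested peaks was -2.86 in place of -0.17 in KO and -2.38 in place of -0.14 in WT. The calls over the table were then 28 higher and 427 lower in KO, in place of 258 and 150, and 57 higher and 552 lower in WT, in place of 321 and 339.

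In KO, 3 Cpeb4 peaks passed the filter, all distal, and 3 were called higher in Ago by edgeR, beside 40.0% of 645 tested peaks, or 1 with all peak reads as library size. The peak at 31934713, which is also the one called higher in KO, held 27, 55 and 22 reads in KO Ago and 4, 0 and 0 in KO IgG libraries 4, 8 and 14. Per peak read, its Ago over IgG ratio was 3.65 (1.38 to 13.6). The peak at 31934809 held 23, 50 and 17 reads in KO Ago and 7, 5 and 2 in KO IgG, which was 125.7 ± 18.1 RPM in KO Ago and 139.2 ± 50.4 RPM in KO IgG. Its ratio was 0.901 (0.510 to 1.71), while the fitted log2 change was 2.59 ± 0.54, or -0.17 with all peak reads. The peak at 31934850 held 24, 38 and 21 reads in KO Ago and 6, 2 and 2 in KO IgG, a ratio of 1.16 (0.602 to 2.52). Without KO IgG library 8 or 14, the peaks at 31934809 and 31934850 were no longer called, and without the filter neither was.

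In WT, 2 Cpeb4 peaks passed the filter and 2 were called higher in Ago by edgeR, beside 35.9% of 894 tested peaks, or 1 with all peak reads. The CDS peak at 31931406, one of those called lower in KO, held 25, 44 and 19 reads in WT Ago and 1, 0 and 0 in WT IgG libraries 2, 6 and 11. Its ratio was 9.88, and with 1 IgG read its interval ran from 1.73 to 394.8. The run peak at 31933434 held 29, 38 and 21 reads in WT Ago and 4, 2 and 2 in WT IgG, a ratio of 1.24 (0.6003 to 2.95), and without WT IgG library 6 it was no longer called. The peaks that passed differed between the genotypes, and a difference between them was not tested.

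Summed over the gene, Cpeb4 stood at 1949 ± 157.2 RPM in KO Ago and 1014 ± 342.8 RPM in KO IgG, a ratio of 1.87 (1.53 to 2.30). In WT it stood at 1660 ± 43.3 RPM in Ago and 1278 ± 445.5 RPM in IgG, a ratio of 1.33 (1.12 to 1.60). The distal stretch of the run had an Ago over IgG ratio of 1.48 (1.13 to 1.99) in KO and 0.970 (0.727 to 1.32) in WT. The first stretch had one of 2.19 (1.44 to 3.496) in KO and 1.64 (1.19 to 2.33) in WT. The interval of the distal stretch in WT spanned 1.

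The intron-labelled share of Cpeb4 reads was 70.4 ± 0.116% in KO Ago, 66.7 ± 0.762% in WT Ago, 75.4 ± 9.43% in KO IgG and 70.3 ± 4.98% in WT IgG (SD, n = 3 each). These Ago reads are also those that chose the gene, so the difference is given as a description with no p. Averaged over the genotypes, Ago minus IgG was -4.33 percentage points. The intervals of the IgG shares are wide, and without KO IgG library 8 the difference was -6.93 points. Between the genotypes in IgG libraries, 190 peaks were tested and 0 were called by edgeR (2 at an unadjusted p under 0.05) or by DESeq2, and none of the 190 was a Cpeb4 peak.

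The authors' deposited table of 6651 peaks past their filter lists 1 Cpeb4 peak, chr11:31934809-31934838. The authors' deposited table gives it a log change of 0.00 for KO over WT (p = 0.996), beside a median of -0.65 over the peaks it lists. The listed peaks met 3 limits. A lowest peak height of 3 in at least 1 genotype was reached by 39 Cpeb4 peaks. An IgG ratio under 0.2 was met by 65 and a density over gene background above 5 by 1.

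The genes whose summed Ago levels over the 6 Ago libraries were most like Cpeb4's were Tnfrsf1a, a receptor for tumour necrosis factor (Pearson r 0.988), the histone gene Hist1h2bc (0.987), Ankrd13c (0.984), Orc3, a subunit of the origin recognition complex (0.980), and the vesicle-traffic GTPase Rab1 (0.975). These are descriptions among 3322 genes on log2(RPM + 1), over libraries that share depth and genotype. Tnfrsf1a stood at 103.9 ± 17.9 RPM in KO Ago and 71.2 ± 7.53 RPM in WT Ago, and Rab1 at 416.3 ± 101.6 RPM in KO Ago and 291.3 ± 31.3 RPM in WT Ago.

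Of 1164 genes with a tested peak, 388 had at least 2, which peaks in both directions require. A peak called higher was present in 28 genes and a peak called lower in 308, and 4 genes had both, among which Cpeb4 was one by choice. The others were Cpox, an enzyme of haem synthesis (18 tested peaks, 1 lower and 1 higher), Ell2, an elongation factor (4 tested, 1 lower and 1 higher), and Slc2a1, the glucose transporter (8 tested, 1 lower and 2 higher).

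The other CPEB genes held few reads and had no tested peak. Cpeb1 stood at 114.8 ± 46.95 RPM in KO Ago and 85.3 ± 25.8 RPM in WT Ago over 10 peaks. Cpeb2 stood at 101.5 ± 19.8 RPM in KO Ago and 61.7 ± 9.54 RPM in WT Ago over 10 peaks. Cpeb3 stood at 142.1 ± 31.9 RPM in KO Ago and 169.8 ± 24.3 RPM in WT Ago over 17 peaks. These sums are not scaled by length, so they are not compared between genes.

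Among 29 genes of poly(A) tail control, which includes the deadenylases and their partners, 21 peaks in 7 genes were tested. Of these, 4 were called lower and 0 higher in KO by edgeR, with a median log2 change of 0.32. Most of the tested peaks were in Btg2, so the median rests largely on that gene. The called peaks were in Btg2, a recruiter of the CCR4-NOT deadenylase (-3.01 ± 0.49), Pabpc4, a poly(A)-binding protein (-2.68 ± 0.50), and Cnot1, the scaffold of CCR4-NOT (-3.24 ± 0.53 and -1.94 ± 0.39, the second with a miR-451a 7-mer-m8 code). The other tested peaks of Btg2 were not called, at log2 changes of -0.31 to 1.35. Of the 14 eIF3 genes, 1 peak was tested, in Eif3c (0.14 ± 0.37), and it was not called. Of the 4 tested peaks of Gata1 and Tal1, 2 were called lower: 1 in the CDS of Gata1 (-2.17 ± 0.51) and 1 intron-labelled peak of Tal1 (-1.91 ± 0.46) with a miR-144-3p 7-mer-A1 code. Called lower among all tested peaks were 17.6%.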

How the data were processed

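The authors' deposited counts are reads that overlap a peak by at least 16 bases, given for one set of peaks in all 12 libraries. The deposited coverage columns give each peak's maximum signal per library, the deposited IgG ratio sets IgG against Ago peak heights, and the deposited density score and seed code scores are the authors'. The authors' log2 changes, p-values and false discovery rates come from voom and limma, per the file headers and column description; that the logarithm is base 2 follows limma's convention. The build was mm10 and the tools limma, bedtools, STAR and cutadapt, per the submitters' processing notes, which give no versions or roles in the form used here.

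From the counts, edgeR 4.0.16 (R 4.3.3) fitted its quasi-likelihood test over the whole table for each comparison, with TMM scaling, filterByExpr at a minimum count of 10 and a total of 15, and Benjamini-Hochberg adjustment over all tested peaks. A peak was called at a false discovery rate of 0.05. Fits used only the 6 libraries of a comparison. Library sizes were the reads in tested peaks. Ago over IgG values of Cpeb4 carry no p, because they reuse the Ago reads that chose the gene. DESeq2 1.42.0, no TMM, reads in all peaks as library size (added after the values were seen), other filters and leaving out each library were the alternatives, and the fits were tested on simulated data. Ratios of summed reads have exact 95% binomial intervals (SciPy 1.17.1). The intron share difference between Ago and IgG is the mean of the KO and WT differences and carries no p. Cpeb4, the gene lists and the tests were chosen with earlier results of these data known, and the division of the run at 2000 nt after its values were seen. Named genes were the 5 with the highest correlation to Cpeb4 among genes with at least 100 Ago reads, all genes called in both directions, and up to 6 list genes with a called peak. Groups came from the labels. Sequences were matched to RefSeq by microRNA name; miR-122-5p is named only. No genome was used, so no peak sequence is given, and the KO genotype was taken from the labels.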

Additional observations from a re-analysis of the deposited data

How the results depend on the processing

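The call totals depended on the filter and on single libraries. For KO over WT in Ago, 2739 peaks were called without a filter and 1315 at a minimum count of 5, and 307 to 1040 when 1 library was left out, against 462 in the fit reported. For Cpeb4, 2 to 4 peaks were called when 1 library was left out. For Ago over IgG, no filter gave 1994 calls in KO and 4646 in WT, a minimum count of 5 gave 1331 and 1951, and leaving out 1 library gave 55 to 1120 in KO and 79 to 1636 in WT. The Cpeb4 calls there were 9 (no filter) and 7 (minimum count of 5) in KO, and 10 and 6 in WT; leaving out 1 IgG library gave 2 to 4 in KO and 1 to 5 in WT, and without an Ago library no Cpeb4 peak was tested. Scaling moved the split of higher against lower calls: 258 higher and 150 lower in KO, against 28 and 427 with all peak reads as library size, 195 and 315 without TMM and 234 and 62 with DESeq2, and 321 higher and 339 lower in WT, against 57 and 552 with all peak reads and 328 and 129 with DESeq2. With all peak reads, 1 Cpeb4 peak was called in KO and 1 in WT, and the log2 change at 31934809 in KO turned to -0.17. For KO over WT in Ago the split was 34 higher and 428 lower, against 83 and 384 with all peak reads, 69 and 395 without TMM, 7 and 373 with DESeq2, and 3 to 54 higher and 304 to 986 lower with 1 library left out. The median log2 change of tested peaks for Ago over IgG was -0.17 in KO and -0.14 in WT, -0.90 and -0.67 without TMM, and -2.86 and -2.38 with all peak reads. KO over WT in IgG gave 1 call without a filter. The intron share difference ran from -6.93 points (without KO IgG library 8) to -2.35 points over libraries left out. The distal share difference in Ago was 13.0 points when divided at 1500 nt, 14.1 at 2500 nt and 13.8 without the called peaks. With 1 Ago library left out it was 17.7 to 19.6 points. In IgG it was 6.95 points at 1500 nt and 16.8 at 2500 nt, with overlap of the genotypes at both. With 1 IgG library left out it was 11.6 to 19.0 points. Of 128 alternative values for single Cpeb4 peaks in KO over WT in Ago, 114 kept direction and side of the threshold, and 1 reversed, at 31934947 without WT Ago library 9 (-0.028, with 0.22 as the highest value when 1 library was left out). Of the 5 Cpeb4 calls for Ago over IgG, 3 depended on which peaks set the library size; the causes of the other changes were not tested. IgG depth limits what can be said of single peaks, since 26 of 82 Cpeb4 peaks had no IgG read.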
